A study of Mus musculus with 4 samples.

Results

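Aire and 8 genes that encode its partner proteins or a parallel regulator were examined for CUT&RUN peaks in 2 populations of mouse medullary thymic epithelial cells, mTEChi and mTEClo. The 9 genes, of 21631 protein-coding genes in all, were Aire, Fezf2, Sirt1, Hipk2, Prkdc, Parp1, Mbd1, Atf7ip and Ccnt1. They were chosen by name, and a peak was assigned to a gene when its midpoint, the summit, lay inside the RefSeq interval of that gene or within 10 kb of it. Under that rule 47 and 44 peaks of mTEChi replicates 1 and 2 were assigned, and 35 and 20 peaks of mTEClo replicates 1 and 2. The full lists held 73510 and 85308 peaks in mTEChi and 89809 and 69359 in mTEClo.

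Both groups were sorted from wild-type thymus (genotype Trp53-WT) of mice of 4 to 5 weeks, after magnetic enrichment of EpCAM-positive cells, with 500000 cells per condition. CUT&RUN releases short DNA fragments with a protein A-MNase fusion that is tethered to an antibody on chromatin. The sample titles name that antibody as anti-P53, while the protocol of the same samples names BAF155, which belongs to a SWI/SNF-type chromatin remodeller, so the labels leave the bound protein unsettled. The labels give neither the sorting gates nor whether replicates came from separate animals, and a p-value over libraries therefore measures only the spread between these libraries. Sequencing depth is unknown. No library with a control antibody was analysed here.

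Aire is a chromatin-associated regulator that lets medullary thymic epithelial cells transcribe many genes otherwise limited to single tissues, so that developing T cells meet those self-antigens. It works through other proteins. The deacetylase Sirt1 and the kinases Hipk2 and DNA-PK modify it, the Mbd1 and Atf7ip repressor complex directs it to silent loci, and cyclin T1 of P-TEFb releases stalled RNA polymerase. Fezf2 is a transcription factor that drives another share of tissue-restricted antigens in the same cells. In common usage the hi cells carry much MHC class II and include the cells that express Aire, while the lo cells are mostly less mature.

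The labelled cell type was compared with peaks at marker genes, which mark chromatin and not expression. All 6 epithelial markers had a peak within 10 kb in both mTEChi and in both mTEClo libraries, and 4 and 3 of them had one within 1 kb of a gene end. Of 8 thymocyte markers 5 and 7 had a peak within 10 kb in both mTEChi and both mTEClo libraries, and none of the 8 had one within 1 kb of a gene end in both libraries of either state. All 5 markers of mature mTEC had a peak within 10 kb in both libraries of each state, and 3 of them an end peak. Of 3 endothelial and 3 fibroblast markers, 3 and 3 had a peak within 10 kb in both mTEChi libraries and 3 and 2 in both mTEClo libraries, with none at a gene end. Of all protein-coding genes, 68.4% and 69.9% had a peak within 10 kb in both mTEChi and both mTEClo libraries. An end peak was found for 25.5% and 27.2%. Peaks within 10 kb did not set the marker lists apart. An end peak in both libraries of a state was found at epithelial and mature mTEC markers and at no marker of the other lists. With so few genes per list and these shares, that difference cannot tell the cell types apart. Aire is itself among the mature mTEC markers. The part of other cell types in the results was not tested.

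The RefSeq promoter, from 250 bases before the annotated start to 50 after it, is shown for the 4 genes in which it held a summit of both mTEChi libraries. All 4 are given from 5′ to 3′ on the strand of the gene (mm10, RefSeq GRCm38.p6): Aire at chr10:78043561-78043860 (minus strand), Fezf2 at chr14:12345816-12346115 (minus), Ccnt1 at chr15:98567687-98567986 (minus) and Atf7ip at chr6:136518601-136518900 (plus). Capitals mark the letters of the motifs searched on both strands, which were the TATA box TATAAA, the CCAAT box (CCAAT), the Sp core GGGCGG, the E-box CACGTG, the AP-1 form TGANTCA, the Ets form CCGGAA, and the consensus of the p53 half-site and that of the NF-kB site.
Aire: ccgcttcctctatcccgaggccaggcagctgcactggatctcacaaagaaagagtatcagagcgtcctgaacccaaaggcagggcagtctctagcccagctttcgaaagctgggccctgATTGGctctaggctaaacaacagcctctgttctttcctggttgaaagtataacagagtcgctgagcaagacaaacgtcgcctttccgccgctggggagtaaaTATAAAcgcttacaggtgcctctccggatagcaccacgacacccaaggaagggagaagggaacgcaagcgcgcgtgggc
Fezf2: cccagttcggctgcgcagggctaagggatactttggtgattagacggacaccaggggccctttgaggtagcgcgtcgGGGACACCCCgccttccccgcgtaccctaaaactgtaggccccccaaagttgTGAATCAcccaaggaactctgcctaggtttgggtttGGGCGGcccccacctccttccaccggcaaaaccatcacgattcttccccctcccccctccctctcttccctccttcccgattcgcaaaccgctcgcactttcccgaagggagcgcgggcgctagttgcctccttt
Ccnt1: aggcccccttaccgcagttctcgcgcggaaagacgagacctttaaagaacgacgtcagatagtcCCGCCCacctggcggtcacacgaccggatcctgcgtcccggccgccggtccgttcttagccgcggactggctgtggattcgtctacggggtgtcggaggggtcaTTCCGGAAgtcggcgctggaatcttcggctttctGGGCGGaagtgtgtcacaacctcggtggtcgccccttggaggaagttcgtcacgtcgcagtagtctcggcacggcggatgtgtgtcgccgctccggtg
Atf7ip: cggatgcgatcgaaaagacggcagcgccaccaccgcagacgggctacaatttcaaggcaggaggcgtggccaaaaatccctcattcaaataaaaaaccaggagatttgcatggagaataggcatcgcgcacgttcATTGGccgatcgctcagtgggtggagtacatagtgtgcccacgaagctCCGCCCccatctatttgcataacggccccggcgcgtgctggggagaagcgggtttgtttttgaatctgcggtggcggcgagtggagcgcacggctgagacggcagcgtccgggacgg

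The promoters differ in these letters. The Aire promoter holds TATAAA, which starts 29 bases before the annotated start and occurs in 13.6% of 32851 RefSeq promoters of the same length. It also holds CCAAT on the opposite strand, starting 131 bases before the start, as 37.4% of promoters do. GGGCGG occurs in 35.7% of promoters and in 6 of 8 promoters of the 7 members that RefSeq lists, but not in that of Aire. The Fezf2 promoter holds TGANTCA (7.81% of promoters), and the NF-kB consensus (4.51%). That of Ccnt1 holds CCGGAA on both strands in overlap (14.9%). The E-box CACGTG stood in the Parp1 and Sirt1 promoters (7.15%). The p53 half-site, present in 8.36% of promoters, was in none of the 8, which says only that its letters are not in these windows.

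Every member had a peak in its window in both mTEChi libraries, against 68.4% of all protein-coding genes, and 8 of 9 in both mTEClo libraries, against 69.9%. Prkdc had no peak in mTEClo replicate 2. The same 8 members had one in all 4 libraries, against 60.3% of genes. The members had a longer median interval, at 29047 bp against 17329 bp for all protein-coding genes, and a longer window can hold more peaks. Per 10 kb of window the members together had 0.600 and 0.562 peaks in mTEChi replicates 1 and 2, and 0.447 and 0.255 in mTEClo replicates 1 and 2. The windows of all protein-coding genes taken as a union had 0.364 and 0.425 in mTEChi and 0.455 and 0.347 in mTEClo. Without Atf7ip, the gene with the most peaks, the members had 0.492 and 0.432 in mTEChi and 0.417 and 0.194 in mTEClo.

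Atf7ip, Prkdc and Fezf2 had more peaks in both mTEChi libraries than in either mTEClo library, and no member had fewer in both. These were 3 of 9 members against 9.15% of all protein-coding genes, and 0 of 9 against 10.1% for fewer peaks. Among peaks above the median score of each list, Prkdc and Fezf2 no longer met the rule, and Aire, Hipk2 and Atf7ip did (8.09% of genes). Among the 10000 highest peaks of each list Aire and Atf7ip met it (5.06%), and with peaks inside the gene interval only, Prkdc and Atf7ip (6.93%). With 2 libraries against 2, the two-sided exact permutation test cannot give a p below 0.333, so no single gene could pass a threshold of 0.05. The median difference (mTEChi minus mTEClo mean) was 1 peak over the members and 0 over all genes. The count of 3 became 5 without mTEChi replicate 2, when 18.8% of genes met the rule, and 5 without mTEClo replicate 1, when 23.5% did. Without mTEClo replicate 2, Aire and Hipk2 had fewer peaks in mTEChi, as 29.1% of genes then did.

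**Figure D1:**
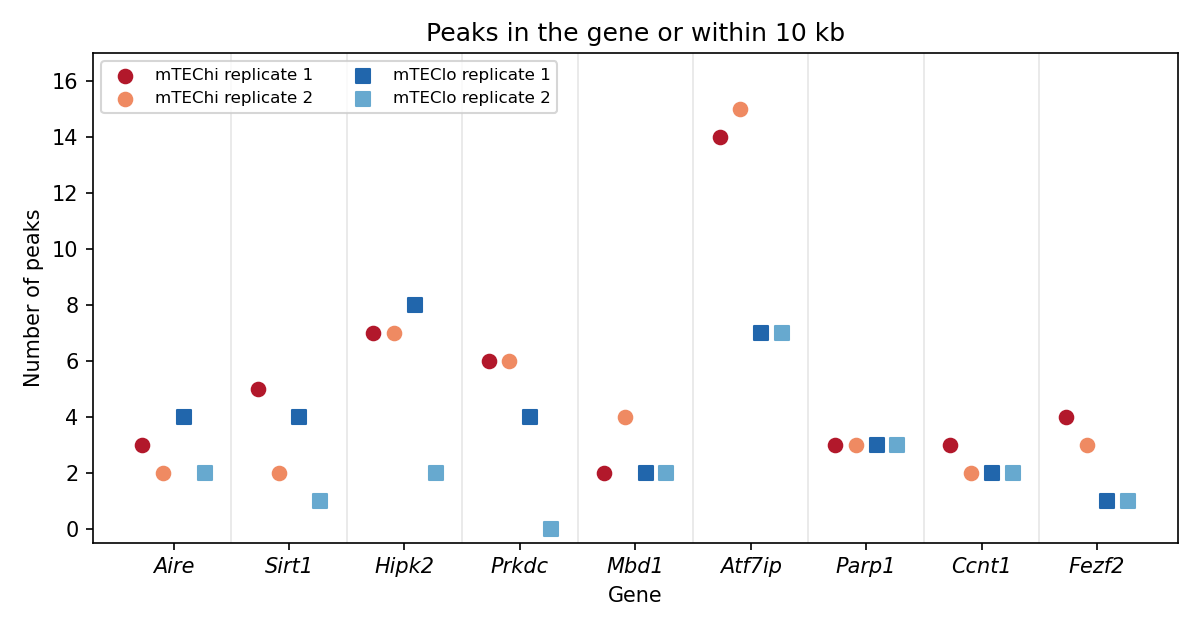
Number of peaks (vertical axis) in each gene or within 10 kb of it, for the 9 genes along the horizontal axis; each point is 1 library, with circles for mTEChi and squares for mTEClo. At Atf7ip the mTEChi libraries had 14 and 15 peaks and both mTEClo libraries 7, while all 4 libraries had 3 peaks at Parp1.

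By the rank of their best peak, 4 members stood higher in both mTEChi libraries than in either mTEClo library, and 1 stood lower. The rank is the position of a peak in its own list ordered by the authors' score, given here as a percent from the top, so that a small value is a strong peak of that library. Aire, Hipk2, Prkdc and Ccnt1 ranked higher, against 16.3% of all protein-coding genes, and Parp1 ranked lower, against 15% of genes. The median best rank of the members was 3.63% and 4.14% in mTEChi replicates 1 and 2, and 23.0% and 16.5% in mTEClo replicates 1 and 2. Over all genes it was 29.1% and 26.2% in mTEChi and 23.0% and 35.1% in mTEClo. Without mTEChi replicate 2, 7 members ranked higher (28.3% of genes) and 2 lower (27.8%). Without mTEChi replicate 1, 3 ranked lower (24.5%). With peaks inside the gene interval only, Hipk2, Prkdc and Fezf2 ranked higher and Aire and Ccnt1 did not (10.9%). Among the 10000 highest peaks, Hipk2 did not (9.38%).

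**Figure D2:**
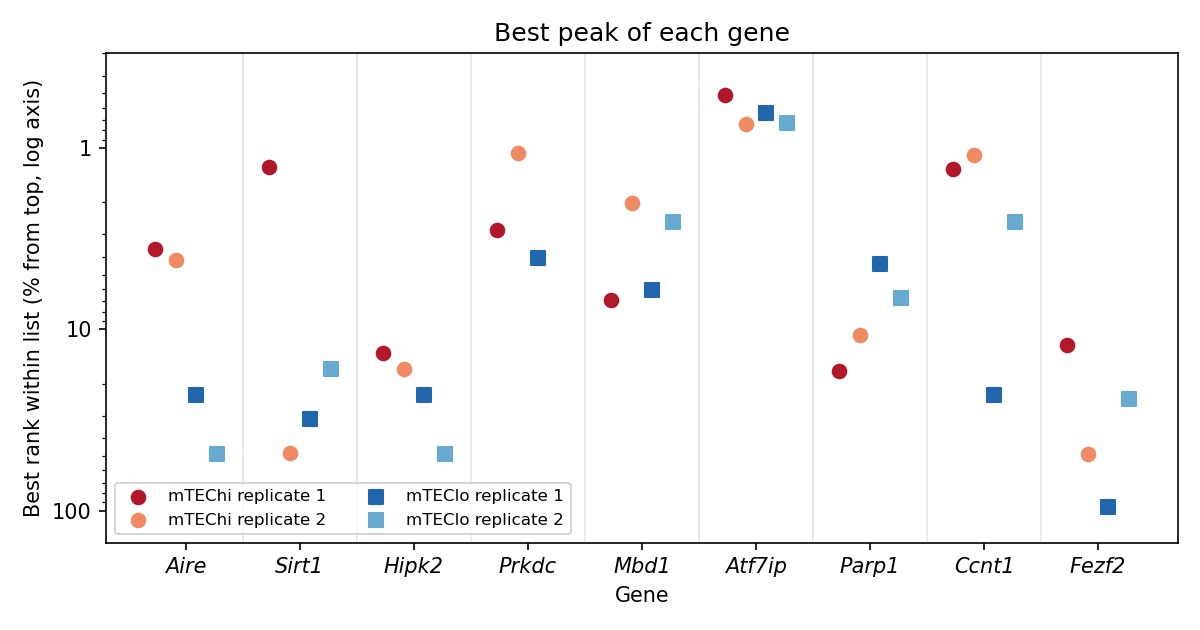
Best rank within its list (percent from the top, log axis, strongest at the top) of the peaks assigned to each of the 9 genes; each point is 1 library, with circles for mTEChi and squares for mTEClo. Aire stood at 3.63% and 4.14% in mTEChi and at 23.0% and 48.8% in mTEClo; Prkdc has no point for mTEClo replicate 2, which had no peak there.

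Aire (chromosome 10, 78030022 to 78043610, minus strand) had its strongest mTEChi peaks about 3 kb upstream of the gene, in a region that held no mTEClo peak. The window held 3 and 2 peaks in mTEChi replicates 1 and 2, and 4 and 2 in mTEClo replicates 1 and 2, so the numbers overlapped. The mTEChi summits of that upstream region (78046362 to 78046886) lay 3126 and 2902 bp before the annotated start, 224 bp from each other. Their scores of 11.8 and 7.22 placed them at 3.63% and 4.14% of their lists. The region lies within the interval of Dnmt3l, which encodes a cofactor of DNA methyltransferases and overlaps the start of Aire. A conserved noncoding element upstream of Aire, responsive to NF-kB downstream of the receptor RANK, is known to be needed for Aire expression in mouse. Its coordinates were not used here, so the peaks were not placed against it.

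At the Aire start itself, summits stood 19 and 137 bp upstream in mTEChi replicates 1 and 2 and 87 bp upstream in mTEClo replicate 2. They ranked at 15.3% and 4.25% in mTEChi and at 48.8% in mTEClo replicate 2. No mTEClo replicate 1 peak lay within 1 kb of the start, and its nearest summit was 2703 bp downstream, at 97.6% of its list. The remaining peaks of mTEClo replicate 1 lay toward the 3′ end, the best of them 13431 bp downstream of the start at 23.0%. A peak of mTEChi replicate 1 shared the region of that best peak, with its summit 65 bp outside the gene interval, at 91.1% of its list. The other mTEClo replicate 2 peak lay 8652 bp upstream, at 79.5%. The difference in best rank, mTEChi minus mTEClo, was -32.1 percentage points (two-sided exact permutation test, p = 0.333, the smallest possible), with no overlap between the states. No mTEChi summit lay inside the gene interval itself. With only peaks counted whose summit lay inside it, and a library without one set to 100%, the difference was 38.5 percentage points. Over the whole window it was -19.2 without mTEClo replicate 2.

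**Figure D3:**
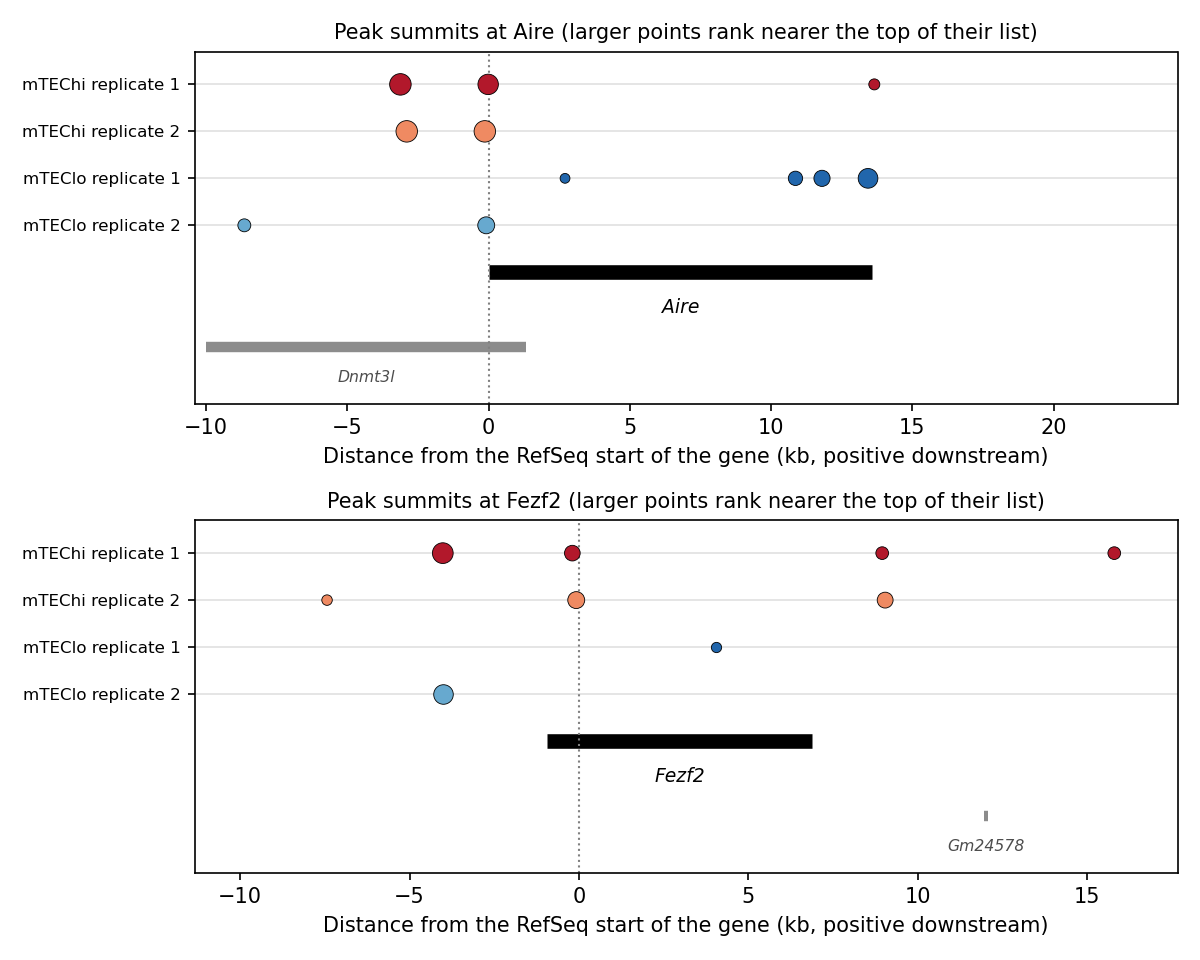
Peak summits by distance from the annotated start (kb, positive downstream) at Aire and Fezf2, with 1 row for each library, mTEChi above mTEClo; larger points rank nearer the top of their list, the black bar is the gene interval and grey bars are neighbouring genes. Both mTEChi libraries have a peak upstream of Aire, at 3126 and 2902 bp, and 1 at the start of Fezf2, at 195 and 80 bp upstream, where the mTEClo rows are empty.

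Among the genes whose best ranks were most like those of Aire were Glg1 and Zfyve26, each within a factor of 1.35 of the Aire rank in all 4 libraries. In all, 16 genes lay within a factor of 1.5. With 4 libraries and coarse scores, such likeness is a description only.

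Fezf2 (chromosome 14, 12338992 to 12346803, minus strand) had 4 and 3 peaks in mTEChi replicates 1 and 2, and 1 in each mTEClo library, with no overlap between the states. The difference of the means was 2.5 peaks (exact permutation test, p = 0.333). In mTEChi a summit lay 195 and 80 bp upstream of the annotated start, inside the promoter shown above, at ranks of 59.5% and 48.8%. The RefSeq interval reaches farther upstream than this start, so both summits lie within it. Neither mTEClo library had a peak within 1 kb of that start: the nearest summits were 4054 bp downstream in replicate 1 and 4011 bp upstream in replicate 2. The start peak was the best of the gene in mTEChi replicate 2 alone. The best peaks of mTEChi replicate 1 and mTEClo replicate 2 shared a region about 4 kb upstream (12349726 to 12350035), at 12.3% and 24.3%. A second mTEChi-only region lay beyond the 3′ end (12336674 to 12337061), at 80.9% and 57.8%. Best ranks overlapped between the states, at 12.3% and 48.8% in mTEChi and 95.1% and 24.3% in mTEClo.

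Sirt1 and Hipk2, whose proteins modify Aire by deacetylation and phosphorylation, had 7 of 9 and 17 of 20 regions from 1 library only, against 85.4% of all regions. Sirt1 (chromosome 10, 63319005 to 63339035, minus strand) had 5 and 2 peaks in mTEChi and 4 and 1 in mTEClo, and both counts and best ranks overlapped. Its strongest peak was in mTEChi replicate 1, 6557 bp upstream of the start, with a score of 20.3 (1.28%). The same region (63345182 to 63345755) ranked at 47.9% in mTEChi replicate 2 and 42.1% in mTEClo replicate 1 and held no peak of mTEClo replicate 2. At the Sirt1 start, a summit lay 187 bp upstream in mTEChi replicate 2 and 480 bp upstream in mTEClo replicate 1. In the other library of each state the nearest summit was 1682 bp upstream (mTEChi replicate 1) and 27321 bp downstream (mTEClo replicate 2).

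Hipk2 (chromosome 6, 38687512 to 38876331, minus strand), a long gene, had 7 peaks in each mTEChi library and 8 and 2 in mTEClo. None of the 4 libraries had a peak within 1 kb of its upstream annotated start; the nearest was 1723 bp downstream, in mTEChi replicate 1. Its peaks were scattered over the gene. A single region (38767489 to 38767798) was shared by the mTEChi libraries without any mTEClo peak and had summits 9 bp apart, at 45.0% and 75.6%. Best ranks were 13.5% and 16.7% in mTEChi and 23.0% and 48.8% in mTEClo, which did not overlap but came from different positions in each library. The difference of -20.9 percentage points (exact permutation test, p = 0.333) was -7.96 without mTEClo replicate 2 and -33.8 without mTEClo replicate 1.

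Prkdc, which encodes the catalytic subunit of DNA-PK, and Parp1, a poly(ADP-ribose) polymerase, act at DNA breaks and associate with Aire. Prkdc (chromosome 16, 15637444 to 15842239) had 6 peaks in each mTEChi library, and 4 and 0 in mTEClo replicates 1 and 2. The difference was 4 peaks (exact permutation test, p = 0.333), and the states did not overlap. It was 2 peaks without mTEClo replicate 2 and 6 without mTEClo replicate 1. The gap in best rank, with the library that had no peak set to 100%, was -50.1 percentage points, -2.08 without that library and -98.0 without mTEClo replicate 1. Its strongest region lay at the lower end of the gene interval (15637309 to 15637726). The interval of Mcm4, which encodes a subunit of the replicative helicase, lies 44 bp from that of Prkdc, and the region reaches into both. To which of the 2 genes the region belongs was not tested. Scores there were 13.7 and 12.1 in mTEChi (2.85% and 1.06%) and 9.94 in mTEClo replicate 1 (4.04%). A second region beside it (15637765 to 15638115) was found in both mTEChi libraries alone, at 51.8% and 26.2%. In both mTEChi libraries the summits of these neighbouring regions carry the peak caller's mark for a peak with several summits. The second region may thus be a further summit of the peak that mTEClo replicate 1 also held, which was not tested.

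Parp1 (chromosome 1, 180568891 to 180600999, plus strand) had 3 peaks in every library and was the member whose best rank was lower in both mTEChi libraries, at 16.9% and 10.8%, against 4.39% and 6.76% in mTEClo. The difference was 8.27 percentage points (exact permutation test, p = 0.333), and 5.22 without mTEChi replicate 1. The 2 mTEClo peaks were not the same site: they lay 19749 and 22486 bp downstream of the start. At the start, all 4 libraries had a summit within 1 kb, 882 and 16 bp downstream in mTEChi, 0 and 135 bp downstream in mTEClo. Those start peaks ranked at 66.99% and 10.8% in mTEChi and at 61.6% and 64.6% in mTEClo.

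Mbd1 binds methylated CpG and Atf7ip is its repressive cofactor, and their loci looked different. Mbd1 (chromosome 18, 74267605 to 74282737) had the same strong region in all 4 libraries (74267994 to 74268354, near its lower end), with scores of 8.46 and 9.20 in mTEChi and 8.63 and 9.003 in mTEClo. These stood at 6.94% and 2.01% in mTEChi and at 6.10% and 2.57% in mTEClo, and the states overlapped. The window also held the 1 mTEClo-only region of all member windows, just beyond the upper end (74283034 to 74283396), weak at 95.8% and 71.9% and inside the interval of Cfap53. A region seen in mTEChi alone (74287795 to 74288437, 86.9% and 40.0%) lay farther out in the same neighbour.

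Atf7ip (chromosome 6, 136518789 to 136610850, plus strand) had 14 and 15 peaks in mTEChi replicates 1 and 2, and 7 in each mTEClo library. The means were 14.5 ± 0.707 and 7 ± 0 (SD, n = 2 each; exact permutation test, p = 0.333), and the states did not overlap. The promoter region (136518548 to 136519170) was present in all 4 libraries, with scores of 30.3 and 9.97 in mTEChi (0.514% and 1.62%) and 18.1 and 6.004 in mTEClo (0.641% and 11.4%). The interval of the lncRNA Gm44140 lies 36 bp before that of the gene. Another region in all 4, about 32 kb downstream (136550933 to 136551347), ranked at 10.4% and 0.737% in mTEChi and at 23.0% and 0.726% in mTEClo. Best ranks of the gene overlapped between the states, at 0.514% and 0.737% in mTEChi and 0.641% and 0.726% in mTEClo.

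In 6 regions of the Atf7ip window both mTEChi lists but no mTEClo list had a peak, and all 6 lay within the gene interval. The strongest of them (136553804 to 136554105) had mTEChi summits 1 bp apart, with scores of 22.7 and 11.0 at 0.992% and 1.34% of their lists. The replicate 1 summit lay 136 bp before the lower coordinate of LOC108169175, a lncRNA annotated within Atf7ip. A region at 136532597 to 136533226 ranked at 3.56% and 26.2%, and one 502 to 678 bp downstream of the start at 8.75% and 4.12%. The mTEChi summits of the latter and of the promoter region beside it carry the peak caller's mark for a peak with several summits. It may thus be a further summit of the promoter peak, which was not tested. The other mTEChi-only regions were weaker in at least 1 library, with ranks between 16.9% and 75.6%. Outside the rule, 1 region was found in both mTEClo libraries and mTEChi replicate 1 (136543102 to 136543601), at 5.67% in mTEChi and 7.67% and 64.6% in mTEClo. Another lay just past the upper coordinate of LOC108169175 (136555605 to 136555988). It held peaks of both mTEChi libraries (12.5% and 20.4%) and of mTEClo replicate 2 (55.8%).

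**Figure D4:**
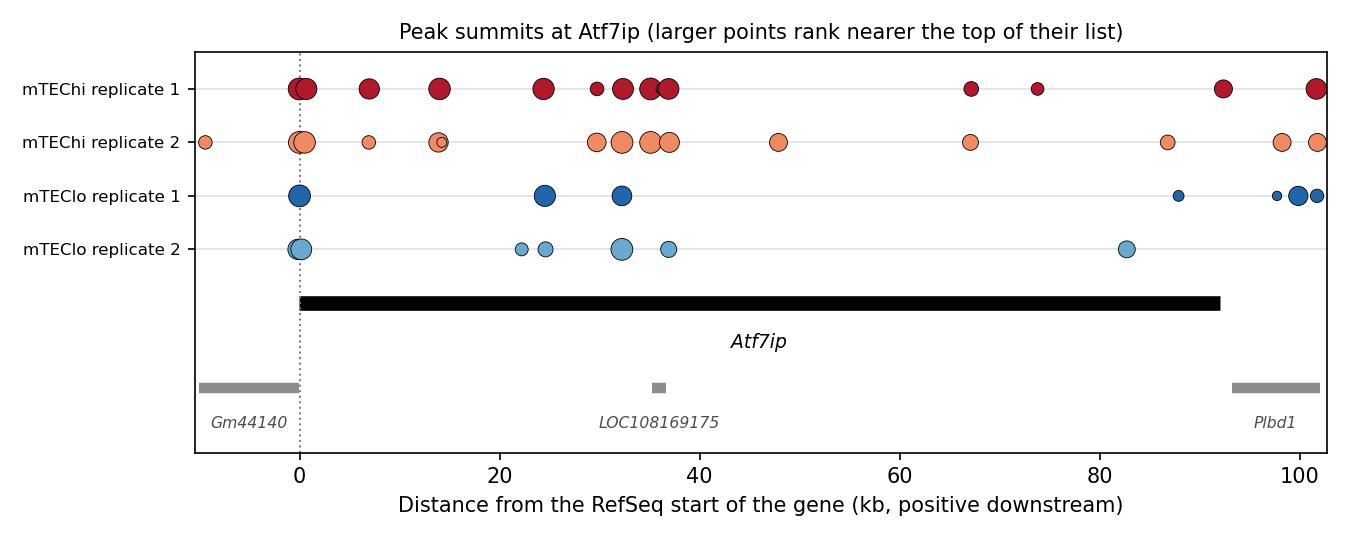
Peak summits at Atf7ip by distance from the annotated start (kb, positive downstream), with 1 row for each library, mTEChi above mTEClo; larger points rank nearer the top of their list, the black bar is the gene interval and grey bars are neighbouring genes. Summits near the start and about 32 kb downstream appear in all 4 rows. Those just before the lower coordinate of LOC108169175, 1 bp apart, appear in the mTEChi rows alone, and those past its upper coordinate also in the row of mTEClo replicate 2.

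Ccnt1 encodes cyclin T1, the partner of the kinase Cdk9 in P-TEFb. The gene (chromosome 15, 98538690 to 98567736, minus strand) had 3 and 2 peaks in mTEChi and 2 in each mTEClo library. The peak at its start was found in all 4 libraries, with summits 112 and 122 bp upstream in mTEChi, 97 bp downstream in mTEClo replicate 1 and 102 bp upstream in mTEClo replicate 2. Scores were 20.0 and 12.0 in mTEChi (1.31% and 1.09%) and 5.66 and 9.003 in mTEClo (23.0% and 2.57%), with no overlap of ranks between the states. Its difference of -11.6 percentage points (exact permutation test, p = 0.333) was -1.37 without mTEClo replicate 1 and -21.8 without mTEClo replicate 2. The start overlaps the lncRNA 9330020H09Rik. A further region in all 4 libraries (98534073 to 98534533) lies inside the interval of the neighbour Kansl2, which encodes a subunit of an acetyltransferase complex.

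At their ends, 7 of 9 members carried a summit no farther than 1 kb from the interval's start or end in both mTEChi libraries, against 25.5% of all protein-coding genes. In both mTEClo libraries 5 had one, against 27.2%, and the same 5 had one in all 4 libraries, against 17.1%. The rule does not ask for the same site. At Aire, which is among the 5, mTEClo replicate 1 had its summit at the downstream end and mTEClo replicate 2 at the start. Fezf2 and Prkdc made up the difference between the states. Sirt1 and Hipk2 did not meet the rule in either state. The 8 member promoters have GC contents between 51.3% and 80.7%, with a median of 52.7% over all promoters.

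The peaks assigned to the members merged into 94 regions, of which 31 held peaks of more than 1 library. Regions with a peak in all 4 libraries numbered 5 (5.32%, against 1.99% of 259773 regions genome-wide). There were 12 mTEChi-only regions, with a peak in both mTEChi lists and no mTEClo list (12.8%, against 1.83%), and 1 mTEClo-only region (1.06%, against 2.75%). The genome-wide set includes regions outside gene windows, and shares over regions in gene windows alone are not given. Of the 12 mTEChi-only regions, Atf7ip held 6, Fezf2 2, and Aire, Hipk2, Prkdc and Mbd1 1 each. The Prkdc region and 1 of Atf7ip lie beside a stronger region and may be further summits of a peak that an mTEClo list also held. Without the window of Atf7ip, 6 of 71 regions were mTEChi-only (8.45%) and 1 was mTEClo-only (1.41%). Of the 94 member regions 63 came from a single library, a smaller share than the 85.4% found over all regions. When a library was left out, 1 list sufficed for the call: the mTEChi-only count became 29 and 33 without mTEChi replicates 1 and 2, and the mTEClo-only count 8 and 21 without mTEClo replicates 1 and 2. The mTEClo-only count was 2 without either mTEChi library. Regions in all remaining libraries numbered 8 without mTEClo replicate 1 or 2. The shares of all regions with a library left out are not given, so these counts cannot be read as a result about the members.

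Seen by library, 26 of 47 member peaks of mTEChi replicate 1 overlapped a peak of another library (55.3%, 95% Wilson interval 41.2 to 68.6), and 29 of 44 of replicate 2 (65.9%, 51.1 to 78.1). In mTEClo these were 15 of 35 (42.9%, 28.0 to 59.1) and 13 of 20 (65.0%, 43.3 to 81.9). In the whole lists, which include peaks outside gene windows, the shares were 31.9% and 25.8% in mTEChi and 31.6% and 32.4% in mTEClo. The intervals cover counting error only, and peaks of 1 gene are not independent.

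A further list held 22 genes of proteins that bind or act with Aire. In it, 19 had a peak in the window in all 4 libraries, against 60.3% of all genes, and 10 had one within 1 kb of a gene end in all 4, against 17.1%. A better best rank in both mTEChi libraries was found for 5 and a worse one for 1, against 16.3% and 15% of all genes as above. In peak number 3 had more and 3 fewer, against 9.15% and 10.1% of all genes. The 4 widest gaps toward mTEChi were those of Xrcc5, which encodes the Ku80 partner of DNA-PK, Kpnb1, an importin, Pias1, a SUMO ligase, and Crebbp, an acetyltransferase. Xrcc5 had best ranks of 5.31% and 4.28% in mTEChi and 42.1% and 57.4% in mTEClo. Chd4, an ATPase of the NuRD remodelling complex, was the gene with a worse rank, at 80.9% and 32.0% in mTEChi against 20.2% and 20.0% in mTEClo. No list held a peak in the window of H2afx. When a library was left out, 1 list sufficed for its state, and the shares of all genes that met each rule were larger too. Without mTEChi replicate 1, 8 genes of the list ranked better and 1 worse, against 32.8% and 24.5% of all genes. Without mTEChi replicate 2 these were 7 and 4, against 28.3% and 27.8%. Without mTEClo replicate 1 they were 11 and 4, against 32.6% and 26.7%, and without mTEClo replicate 2 they were 10 and 8, against 24.4% and 33.7%.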

How the data were processed

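The files hold 1 peak list for each of 4 CUT&RUN libraries, grouped by their titles. The submitters' processing notes name mm10, MACS2 2.2.7.1, Bowtie2 2.2.9, SAMtools 1.9 and Picard; the sources used here give no settings and no control. The deposited lists give intervals of 301 bp around a summit, called per library, and a score that was read as the −log10 of the peak caller's p-value or q-value; which of the 2 is not stated. It starts at 2.00 in each list and served only to rank peaks within that list, ties sharing their mean rank. Depth is unknown.

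Genes and promoters came from RefSeq tables of GRCm38.p6. RefSeq promoters, which give strand and start, were used for 7 members; Prkdc and Mbd1 were not among them, and a peak's exon or intron was not assigned. A genome sequence was not used here. Peaks of the 4 lists that shared at least 1 bp were merged into regions. A peak with several summits was counted once for each summit. Such summits were 5 member peaks in each mTEChi library, and 2 and 3 in mTEClo replicates 1 and 2. Counts of members are set against the same count over all protein-coding genes or all regions; for single values a two-sided exact permutation test over libraries was used, with a gene without a peak given a rank of 100%. Steps were tested on simulated data.

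The 9 members, the list of 22 genes (named up to 4 per direction by the gap in best rank), the markers, the rule for the 3 genes most like Aire and the alternatives were chosen with earlier results of these data known. One of the genes most like Aire is not reported here. Alternatives were other windows and gene end distances, cuts by score, each library left out, summits within 75 bp and the replicate number as a block. The tools were matplotlib 3.10.9, scipy 1.17.1, pandas 2.3.3, numpy 2.4.6 and Python 3.11.15.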

Additional observations from a re-analysis of the deposited data

How the results depend on the processing

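With peaks inside the gene interval only, 4 members had a peak in both mTEClo libraries, and 0 regions were mTEClo-only. Of the list of 22, 4 genes then had a worse best rank in mTEChi, against 12.3% of all genes. The differences (mTEChi minus mTEClo) then turned to 38.5 for the Aire rank, 7.93 for the Ccnt1 rank and -0.5 for Sirt1 peaks; peaks outside the interval are left out there and a library without a peak is set to 100%. In windows of 5 kb, 2 genes of that list ranked worse (14.3% of all genes) and Mbd1 peaks differed by -0.5. In windows of 25 kb, 1 member had fewer peaks (Parp1), against 11.8% of all genes. In the same windows 2 listed genes ranked worse (16.2% of all genes), 3 regions were mTEClo-only and Sirt1 peaks differed by -1. Among peaks above the median score, 5 members had a peak in both mTEClo libraries and 3 an end peak there, 0 regions were mTEClo-only, and the peak differences were 1.5 for Aire and -0.5 for Sirt1. With lists cut to equal length, 0 regions were mTEClo-only. Among the 10000 highest peaks of each list, 5 members had a peak in both mTEChi and 3 in both mTEClo libraries, and 4 and 2 had an end peak. In that cut 0 listed genes ranked worse, against 6.95% of all genes. Regions numbered 2 in all 4 libraries, 3 mTEChi-only and 0 mTEClo-only. The differences were 1.5 for Aire peaks and -49.4 for the Sirt1 rank. With summits required within 75 bp, regions numbered 1 in all 4 libraries, 6 mTEChi-only and 2 mTEClo-only. The mTEChi-only regions of Aire and Fezf2 were then lost. Their mTEChi summits lay 224 bp apart at Aire, and 87 and 115 bp apart at Fezf2. Within 250 bp of a gene end, 4 members had a peak in both mTEChi libraries. Without Atf7ip, an alternative chosen after seeing the data, 3 regions were in all 4 libraries and 6 mTEChi-only. Counts of members with a peak or an end peak under these settings stand without the share of all genes. Counts of regions stand without the share of all regions. A difference between the states in those counts can therefore not be read as a result about the members. For every change named above other than those of the gene interval, the cause was not tested.

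Leaving out each library in turn gave 3 to 5 members with more peaks, 0 to 2 with fewer, 4 to 7 with a better rank and 1 to 3 with a worse one. The shares of all genes were then 14.3% to 24.7% with more peaks and 17.3% to 29.1% with fewer. A better rank was found for 24.4% to 32.8% of all genes and a worse one for 24.5% to 33.7%. In the list of 22, leaving out a library gave 7 to 11 better and 1 to 8 worse. Regions in all libraries left numbered 6 to 8, mTEChi-only regions 15 to 33 and mTEClo-only regions 2 to 21. For the state left with 1 library, 1 list suffices. These region counts stand without the share of all regions and cannot be read as a result about the members. Differences in peaks ran from -1.5 to 0.5 for Aire, from -0.5 to 2.5 for Sirt1 and from -1 to 5 for Hipk2. Differences in best rank ran from -2.33 to 2.61 for Mbd1, from -0.169 to 0.0537 for Atf7ip, from -22.7 to 23.9 for Sirt1 and from -64.6 to 6.27 for Fezf2. The replicate numbers share no stated source, and the replicate differences of the states correlated at -0.0111 over 21631 genes. With the replicate number as a block, 4 members had more peaks (Sirt1 added) and 0 fewer, against 13.3% and 14.2% of all genes. A better rank was found for 4 members and a worse one for 1, against 22.1% and 21.0% of all genes. In the list of 22 these were 6 and 1. The smallest exact permutation p is then 0.5. Depth was unknown, so a missing peak may be a peak below the caller's threshold.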
